A study of Arabidopsis thaliana with 38 samples.

Results

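The genes described here are nuclear genes of Arabidopsis thaliana that encode proteins of the plastid ribosome. They were chosen from a list of 34 loci, and every probe set that the array annotation assigns to exactly 1 of those loci was used. Of the 34 loci, 8 had such a probe set, and the other 26 were not analysed here because no probe set is named for them. In all, 13356 genes had a probe set of their own. The measured genes encode 2 proteins of the small subunit, S6 (AT1G64510) and S10 (AT3G13120), 5 proteins of the large subunit, L3 (AT2G43030), L17 (AT3G54210), L19 (AT5G47190), L29 (AT5G65220) and L34 (AT1G29070), and the ribosome-associated protein PSRP1 (AT5G24490). The annotation gives these genes by locus, and the protein names are textbook assignments of the loci.

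The study measured RNA of 25-day-old Col-0 rosettes on 38 Affymetrix ATH1 arrays, a GeneChip with 22746 non-control probe sets. The mutant atcsp1-1 (8 arrays) is named for the gene of the cold shock protein CSP1, the line CSP1-FH (35S:AtCSP1-FH#11, 12 arrays) expresses tagged CSP1, and the line HF-RPL18 (35S:HF-RPL18#12-2-4, 18 arrays) expresses a tagged protein of the cytosolic ribosome. Both transgenes are driven by the 35S promoter, so HF-RPL18 is not a plain wild type, and each transgene is represented by a single numbered line. Cold plants spent 12 h at 4 °C under dimmer light and non-stress plants were kept at 23 °C, so temperature and light cannot be told apart. Each line and condition gave polysomal RNA (at least 2 ribosomes per mRNA) and total RNA, and CSP1-FH and HF-RPL18 also gave RNA co-purified with CSP1 by an antibody from formaldehyde-treated leaves (CSP1-IP). HF-RPL18 had 3 arrays per group and the other lines had 2. No CSP1-IP arrays of atcsp1-1 were analysed here, so RNA recovered without CSP1 gives no baseline for that pool, and no probe set is named for CSP1, so the targeted gene was not checked.

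The plastid ribosome is of the bacterial type. Its RNAs and some of its proteins are encoded in the plastid genome, and the remaining proteins are made from nuclear mRNAs on cytosolic ribosomes and imported, so that the supply of both genomes has to be matched. CSP1 is an RNA-binding protein with a cold shock domain and zinc knuckles, of a family known for RNA chaperone activity in the cold. In Arabidopsis, mRNAs of cytosolic ribosomal proteins are known to leave polysomes under several stresses.

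The pools differed as a whole. On the deposited RMA log2 scale the SD over probe sets of an array was 1.83 to 2.14 on the 10 CSP1-IP arrays, against 2.22 to 2.31 on the 14 polysomal arrays and 2.27 to 2.32 on the 14 total arrays. The 3′ probe set of the GAPDH control exceeded its 5′ probe set by 5.02 to 7.60 on CSP1-IP arrays, against 0.79 to 2.42 on polysomal and 1.05 to 1.99 on total arrays. The SD of the 8 genes within groups was 0.50 in CSP1-IP RNA, against 0.31 in polysomal and 0.21 in total RNA. The 7 measured leaf markers averaged 11.05 to 11.98 on CSP1-IP arrays, against 12.51 to 12.81 on polysomal and 12.46 to 12.72 on total arrays. The 2 measured markers of other organs, CEP5 and EXPA7, averaged 2.74 to 3.54 over all arrays, near the bottom of the scale. Differences below are log2 differences of group means with their standard errors (SE) from limma, and a gene was called at an adjusted p below 0.05 over all probe sets. The SE rests on a spread shared by all groups, so it does not carry the wider spread of CSP1-IP arrays. Overlap of arrays between groups is only described, since the share of all probe sets without overlap was not counted. A signal was compared between samples for a gene, not between genes, and between CSP1-IP RNA and the other pools this comparison depends on the scale.

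**Figure D1:**
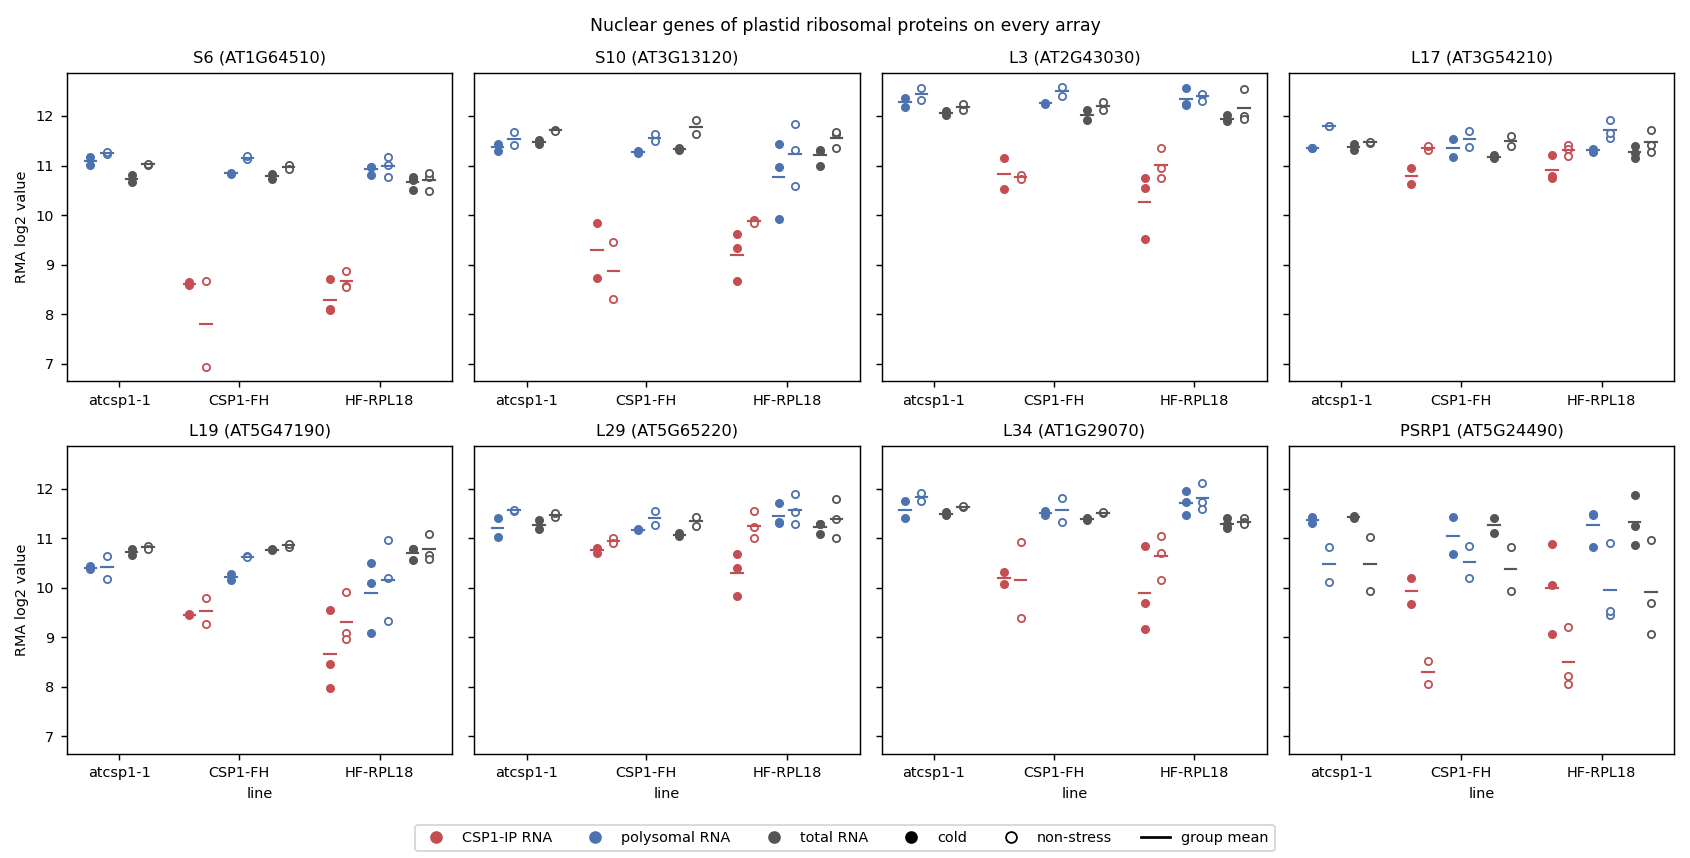
RMA log2 values of the 8 genes on each of the 38 arrays, by line (x axis); within a line, CSP1-IP, polysomal and total RNA run from left to right, filled points are cold and open points non-stress arrays, and bars are group means of 2 or 3 arrays. S6 and S10 lie well below their own polysomal and total values in CSP1-IP RNA, and L17 stays close to its own. The group mean of the gene of PSRP1 is higher in the cold in every line and pool.

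The first question was which of these mRNAs were recovered with CSP1, set against the matching total RNA. All 8 genes had lower means in CSP1-IP than in total RNA in each of the 4 comparisons. The lower call was reached by 5 of 8 genes in cold CSP1-FH, where 14.0% of all probe sets were called lower, and by 6 of 8 in non-stress CSP1-FH, where 17.2% were. It was reached by 7 of 8 in cold HF-RPL18, where 23.8% of all probe sets were called lower, and by 5 of 8 in non-stress HF-RPL18, where 17.0% were. No gene was called higher. In cold CSP1-FH the count was 2 without the second CSP1-IP array and 3 without either total array. The medians of the 8 differences were −1.26 in cold CSP1-FH, −1.40 in non-stress CSP1-FH, −1.53 in cold HF-RPL18 and −1.28 in non-stress HF-RPL18, beside medians over all probe sets of 0.16, 0.20, 0.20 and 0.13 in the same order.

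The size of this deficit depended on the scale. After cyclic loess normalization of all arrays, which removes trends with signal level, the medians were −0.65 in cold CSP1-FH, −0.54 in non-stress CSP1-FH, −0.76 in cold HF-RPL18 and −0.73 in non-stress HF-RPL18. On that scale 2 of 8 genes were called lower in cold CSP1-FH (9.29% of all probe sets), 2 of 8 in non-stress CSP1-FH (11.1%), 4 of 8 in cold HF-RPL18 (15.6%) and 4 of 8 in non-stress HF-RPL18 (12.1%). The genes are strongly expressed, with means in total RNA between 10.77 and 12.09. Of the 297 probe sets whose total-RNA means lay in that range, 50.2%, 57.6%, 64.6% and 52.5% were called lower in the 4 comparisons in the same order, with median differences of −0.78, −1.08, −1.02 and −0.70. After cyclic loess 30.0%, 35.7%, 39.4% and 37.4% of these 297 probe sets were called lower, with median differences of −0.17, −0.23, −0.23 and −0.14. Lower CSP1-IP values were thus common among probe sets of equal signal on both scales. The part of signal level and of the 3′ excess in the result was not tested.

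**Figure D2:**
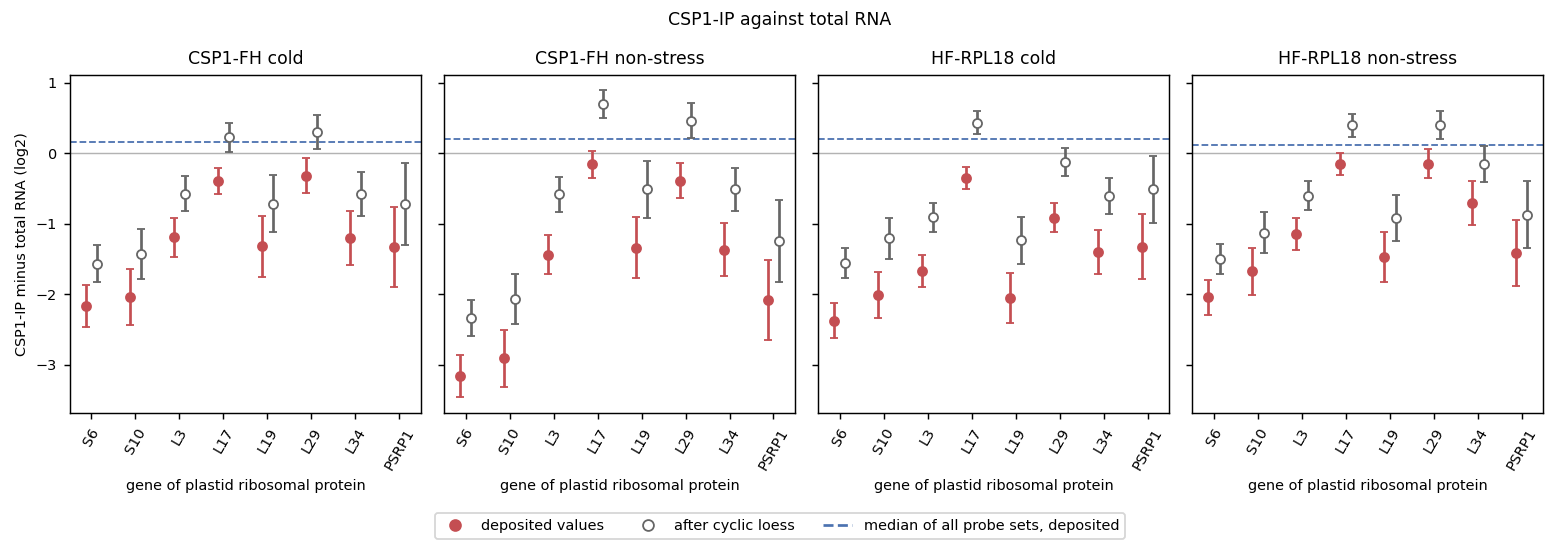
CSP1-IP minus total RNA (log2) for each gene in the 4 comparisons; points are differences of group means and bars are SE, filled for deposited values and open after cyclic loess, and the dashed line is the median of all probe sets. S6 and S10 are lowest or among the lowest 3 in every panel on both scales. After loess L17 lies above 0 in every panel, and L29 does so outside cold HF-RPL18.

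S6 and S10 encode the measured proteins of the small subunit. S6, a protein of the central domain of the small subunit in bacteria, gave 8.59 and 8.64 in CSP1-IP RNA of cold CSP1-FH, against 10.84 and 10.73 in total RNA. In non-stress CSP1-FH its CSP1-IP arrays read 8.67 and 6.93, against 11.00 and 10.93 on total arrays. The second of these CSP1-IP arrays was the lowest value of S6 on any array, and every CSP1-IP array lay below every total array. The CSP1-IP values of S6 in cold HF-RPL18 were 8.70, 8.08 and 8.09, against 10.76, 10.71 and 10.51 in total RNA, and in non-stress HF-RPL18 they were 8.56, 8.87 and 8.55, against 10.77, 10.85 and 10.49. The differences were −2.17 (SE 0.30, limma adjusted p = 7.95e-06) in cold CSP1-FH, −3.16 (SE 0.30, limma adjusted p = 1.51e-08) in non-stress CSP1-FH, −2.37 (SE 0.25, limma adjusted p = 2.71e-08) in cold HF-RPL18 and −2.04 (SE 0.25, limma adjusted p = 3.81e-07) in non-stress HF-RPL18. The lowest of these is an 8.94-fold and the highest a 4.11-fold lower signal. S6 was called lower in CSP1-IP RNA in all 4 comparisons under every alternative tried, cyclic loess included.

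S10, a protein of the head of the small subunit that in Escherichia coli also takes part in transcription antitermination, was lower in all 4 comparisons and also kept its call under every alternative tried. In non-stress CSP1-FH it gave 9.45 and 8.30 in CSP1-IP RNA, against 11.91 and 11.65 in total RNA (difference −2.91, SE 0.40, limma adjusted p = 3.61e-06). In non-stress HF-RPL18 it gave 9.91, 9.89 and 9.84 in CSP1-IP RNA, against 11.64, 11.68 and 11.34 in total RNA (difference −1.67, SE 0.33, limma adjusted p = 0.000249). These 3 CSP1-IP arrays agreed closely. The CSP1-IP arrays of S10 lay apart from the total arrays in all 4 comparisons, and in the other 3 CSP1-IP groups they spread more widely. Its cold differences were −2.04 (SE 0.40) in CSP1-FH and −2.01 (SE 0.33) in HF-RPL18.

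Among the large-subunit genes, L3 and L19 were called lower in all 4 comparisons, L34 in 3, L29 in 1 and L17 in none. L3, a protein that in bacteria reaches from the surface of the large subunit towards the peptidyl transferase centre, gave 10.75, 10.55 and 9.52 in CSP1-IP RNA of cold HF-RPL18, against 12.02, 11.91 and 11.90 in total RNA (difference −1.67, SE 0.23, limma adjusted p = 1.48e-06). Its other differences lay between −1.44 and −1.15, its arrays did not overlap in any comparison, and its calls in CSP1-FH were lost after cyclic loess. L19, which lies at the interface of the subunits in bacteria, gave 9.55, 7.97 and 8.47 in CSP1-IP RNA of cold HF-RPL18, against 10.78, 10.79 and 10.56 in total RNA (difference −2.05, SE 0.35, limma adjusted p = 3.65e-05). Its other differences lay between −1.46 and −1.31. The calls of L19 in CSP1-FH were lost after cyclic loess and when each RNA pool had a variance of its own.

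L34 (AT1G29070), a small basic protein of the large subunit, gave 10.92 and 9.39 in CSP1-IP RNA of non-stress CSP1-FH, against 11.51 and 11.53 in total RNA (difference −1.36, SE 0.38, limma adjusted p = 0.00674). These CSP1-IP arrays differed from each other by more than the first of them differed from total RNA, and without the second the difference was −0.60 (adjusted p = 0.297). Its difference was −1.20 in cold CSP1-FH (SE 0.38, limma adjusted p = 0.0206), −1.40 in cold HF-RPL18 (SE 0.31, limma adjusted p = 0.000598) and −0.70 in non-stress HF-RPL18 (SE 0.31, limma adjusted p = 0.0858). All 3 calls of L34 were lost after cyclic loess, where its differences were −0.58 in cold CSP1-FH, −0.51 in non-stress CSP1-FH and −0.61 in cold HF-RPL18.

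L17 and L29, both of which surround the exit of the peptide tunnel in bacteria, were the genes nearest to their total levels. L17 gave 11.21, 10.79 and 10.75 in CSP1-IP RNA of cold HF-RPL18, against 11.39, 11.26 and 11.16 in total RNA, and these ranges overlapped. Its differences were −0.39 in cold CSP1-FH, −0.15 in non-stress CSP1-FH, −0.35 in cold HF-RPL18 and −0.15 in non-stress HF-RPL18, none of them called (lowest limma adjusted p = 0.0555). After cyclic loess the sign turned, and L17 was called higher in non-stress CSP1-FH (0.70, SE 0.20, limma adjusted p = 0.0110) and cold HF-RPL18 (0.43, SE 0.16, limma adjusted p = 0.0446). Of the 297 probe sets of equal signal, 26.6% and 23.2% were called higher on that scale in the same order. L29 was called lower in cold HF-RPL18, where it gave 10.68, 10.40 and 9.84 in CSP1-IP RNA, against 11.08, 11.29 and 11.29 in total RNA (difference −0.91, SE 0.21, limma adjusted p = 0.000644). In the other 3 comparisons its differences lay between −0.39 and −0.14 without a call. After cyclic loess the call of L29 in cold HF-RPL18 was lost. On that scale the other 3 lay above 0 without a call, at 0.30 in cold CSP1-FH, 0.47 in non-stress CSP1-FH and 0.41 in non-stress HF-RPL18.

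PSRP1 is the plastid homologue of the bacterial factor pY, which in Escherichia coli sits in the decoding region of idle ribosomes under cold and starvation, and the spinach protein binds plastid ribosomes in the same place. Its gene gave 8.07 and 8.53 in CSP1-IP RNA of non-stress CSP1-FH, against 9.94 and 10.81 in total RNA (difference −2.08, SE 0.57, limma adjusted p = 0.00597). The differences were −1.33 in cold CSP1-FH (SE 0.57, limma adjusted p = 0.0828), −1.32 in cold HF-RPL18 (SE 0.47, limma adjusted p = 0.0189) and −1.42 in non-stress HF-RPL18 (SE 0.47, limma adjusted p = 0.0209). The SE of this gene was the largest of the 8, its arrays overlapped between the pools in both HF-RPL18 comparisons, and all 3 of its calls were lost after cyclic loess.

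CSP1-IP RNA was then set against polysomal RNA, the fraction in translation. These comparisons use the same CSP1-IP arrays as those against total RNA. All 8 genes again had lower means in CSP1-IP RNA in each comparison. The lower call was reached by 5 of 8 genes in cold CSP1-FH (13.4% of all probe sets), 5 of 8 in non-stress CSP1-FH (16.1%), 8 of 8 in cold HF-RPL18 (20.8%) and 5 of 8 in non-stress HF-RPL18 (15.9%). The medians of the 8 differences were −1.22, −1.57, −1.41 and −1.27 in the same order, and −0.56, −0.64, −0.53 and −0.63 after cyclic loess. On that scale the lower call was reached by 3 of 8 genes in cold CSP1-FH (9.71% of all probe sets), 3 of 8 in non-stress CSP1-FH (11.8%), 3 of 8 in cold HF-RPL18 (16.0%) and 2 of 8 in non-stress HF-RPL18 (12.3%). Of the 297 probe sets with total-RNA means in the range of these genes, 50.5%, 59.3%, 63.6% and 58.2% were called lower in the same order. After cyclic loess these shares were 28.3%, 35.4%, 38.0% and 33.7%.

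S6, S10, L3 and L34 were called lower than in polysomal RNA in all 4 comparisons. S6 differed by −2.23 to −3.36, S10 by −1.36 to −2.69, L3 by −1.38 to −2.07 and L34 by −1.18 to −1.82. The gene of PSRP1 was called in 3 comparisons, L17 in 2, and L19 and L29 in 1 each. After cyclic loess S6 and L3 kept all 4 calls, S10 kept those in CSP1-FH and lost those in HF-RPL18, and L34 kept only that in cold HF-RPL18 (−0.93). The calls of PSRP1, L19 and L29 were all lost on that scale. L17 lay above 0 in all 4 comparisons after cyclic loess and was called higher in non-stress CSP1-FH (0.74, limma adjusted p = 0.00693) and cold HF-RPL18 (0.50, limma adjusted p = 0.0193). On that scale 26.9% of the 297 probe sets of equal signal were called higher in each of these groups. L29 also lay above 0 on that scale outside cold HF-RPL18, without a call. L19 gave 9.55, 7.97 and 8.47 in CSP1-IP RNA of cold HF-RPL18, against 10.09, 10.50 and 9.09 in polysomal RNA, and these arrays overlapped. Single arrays moved some counts: in cold CSP1-FH 3 genes were called without the second CSP1-IP or the first polysomal array, in non-stress CSP1-FH 3 without the second polysomal array, and in cold HF-RPL18 5 without the second polysomal array.

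The next question was whether the share of these mRNAs on polysomes differed from their share in total RNA. None of the 8 genes was called in any of the 6 comparisons by limma, and at an unadjusted p below 0.05 the count was 1 in cold HF-RPL18 and 0 in the other 5. Of all probe sets, 0.0308% were called in cold atcsp1-1, 0% in non-stress atcsp1-1, 0.0440% in cold CSP1-FH, 0.435% in non-stress CSP1-FH, 2.84% in cold HF-RPL18 and 1.12% in non-stress HF-RPL18. The medians of the 8 genes lay between −0.04 and 0.20. The genes did not share a direction: L3, L34 and S6 had higher polysomal than total means in all 6 comparisons, and L19 and S10 had lower ones in all 6.

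L19 had the lowest polysomal value relative to total RNA, with 10.09, 10.50 and 9.09 in polysomal RNA of cold HF-RPL18, against 10.78, 10.79 and 10.56 in total RNA. The difference was −0.82 (SE 0.35, limma adjusted p = 0.236), and the third polysomal array was the lowest by a wide margin. S10 was also low on that array, with 10.97, 11.43 and 9.91 in polysomal RNA, against 11.32, 11.30 and 11.00 in total RNA (difference −0.44, SE 0.33, limma adjusted p = 0.564). The same pattern stood in non-stress HF-RPL18, where the third polysomal array read 9.33 for L19 and 10.58 for S10, the lowest of the 3 arrays for each gene. L3 gave 12.57, 12.23 and 12.22 in polysomal RNA of cold HF-RPL18, against 12.02, 11.91 and 11.90 in total RNA, and these arrays did not overlap (difference 0.40, SE 0.23, limma adjusted p = 0.411). L34 gave 11.59, 11.73 and 12.12 in polysomal RNA of non-stress HF-RPL18, against 11.40, 11.32 and 11.29 in total RNA (difference 0.47, SE 0.31, limma adjusted p = 0.669). The value of 12.12 came from replicate 3, the array that was low for L19 and S10. On replicate 3 of cold HF-RPL18 polysomal RNA L34 was also highest (11.96), as was L29 on both (11.90 non-stress, 11.71 cold). The GAPDH 3′ excess was 2.42 and 2.16 on these arrays, against 1.04 to 1.52 on replicates 1 and 2 of these groups. The part of the 3′ excess in these differences was not tested.

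In total and polysomal RNA, the mean of the PSRP1 gene moved in the cold in the opposite direction to the means of the other 7. The gene was not tested against the other 7. In whole rosettes, fewer cells of a type and less RNA per cell cannot be told apart. Its cold mean exceeded its non-stress mean in all 8 comparisons of line and pool, whereas the means of the other 7 genes were lower in the cold in all 6 comparisons of total and polysomal RNA. In total RNA, 1 of 8 genes was called in HF-RPL18, where 10.8% of all probe sets were called, and 0 of 8 in atcsp1-1 (7.15%) and CSP1-FH (5.69%). In polysomal RNA, 0 of 8 genes were called by limma in atcsp1-1 (6.28% of all probe sets), CSP1-FH (4.58%) and HF-RPL18 (9.06%). At an unadjusted p below 0.05 the counts in total RNA were 0 in atcsp1-1 and CSP1-FH, and in polysomal RNA they were 1 in atcsp1-1, 0 in CSP1-FH and 2 in HF-RPL18.

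The gene of PSRP1 (AT5G24490) gave 11.24, 11.87 and 10.86 in total RNA of cold HF-RPL18 plants, against 9.06, 10.96 and 9.70 in non-stress plants. The second non-stress array was high and overlapped the cold arrays, yet the cold array was the higher of each same-numbered pair, by 2.18, 0.91 and 1.16. The difference was 1.42 (SE 0.47, limma adjusted p = 0.0491), a 2.67-fold higher signal. The call rests on few arrays: it was lost with the compared groups alone (adjusted p = 0.103) and without the first cold array (0.103), the second cold array (0.245), the first non-stress array (0.289) or the third non-stress array (0.160). Over the other alternatives the adjusted p lay at or below 0.0467, and with the replicate number as a block it was 0.00256.

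In polysomal RNA of HF-RPL18 the same gene, AT5G24490, gave 11.46, 11.50 and 10.82 in the cold, against 9.44, 10.90 and 9.53 without stress. These arrays overlapped. The difference of 1.30 (SE 0.47) missed the threshold (limma adjusted p = 0.0849) and passed it with the replicate number as a block (adjusted p = 0.00608), and the cold array was again the higher of each pair. In atcsp1-1 total RNA it gave 11.45 and 11.42 in the cold, against 9.94 and 11.03 without stress (difference 0.95, SE 0.57, limma adjusted p = 0.473). In CSP1-FH total RNA it gave 11.42 and 11.10 in the cold, against 9.94 and 10.81 without stress (difference 0.88, SE 0.57, limma adjusted p = 0.575). The cold arrays lay above the non-stress arrays in both of these lines, but with 2 arrays per group such a separation is weak, and neither difference was called. The polysomal differences were 0.89 (SE 0.57) in atcsp1-1 and 0.54 (SE 0.57) in CSP1-FH, where the arrays read 11.43 and 10.68 in the cold, against 10.19 and 10.84 without stress, and overlapped.

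The other 7 genes moved little with temperature outside the CSP1-IP pool. In total RNA their differences lay between −0.45 and −0.04, and in polysomal RNA between −0.47 and −0.01. L17 was the nearest to a call, with 11.31, 11.28 and 11.34 in polysomal RNA of cold HF-RPL18 plants, against 11.56, 11.93 and 11.66 in non-stress plants. These arrays did not overlap, and the difference of −0.41 (SE 0.16) had a limma adjusted p of 0.111. S10 had the lowest difference in total RNA, with 11.34 and 11.31 in cold CSP1-FH, against 11.91 and 11.65 in non-stress CSP1-FH (difference −0.45, SE 0.40, limma adjusted p = 0.798).

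**Figure D3:**
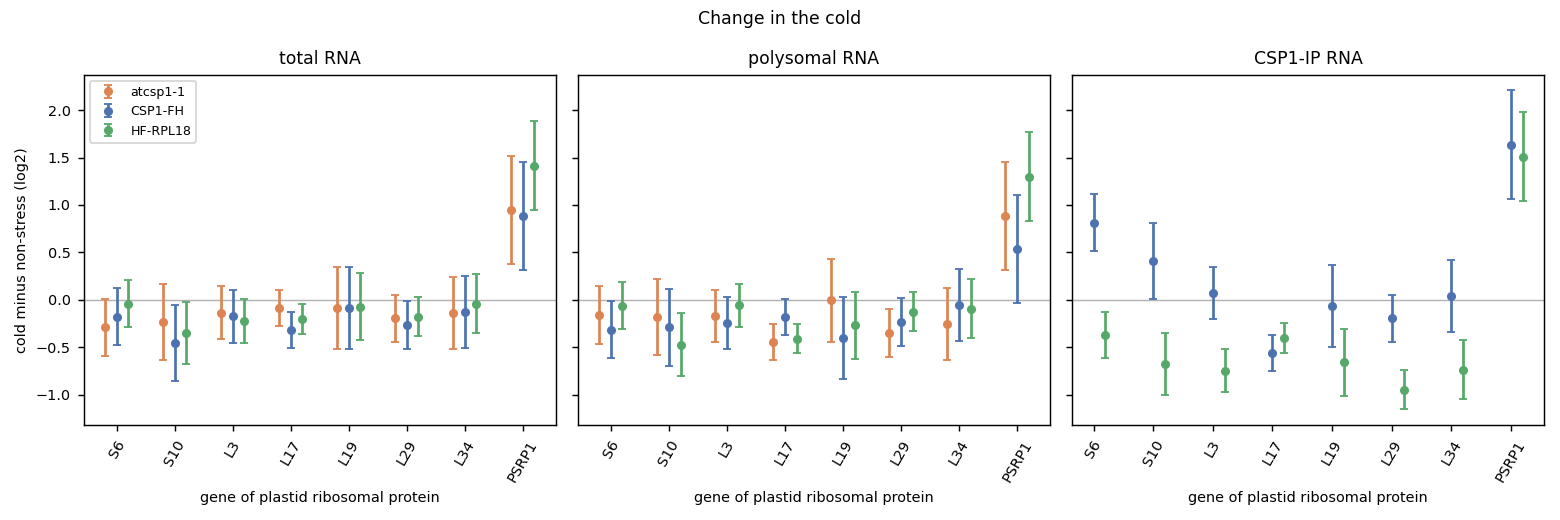
Cold minus non-stress difference (log2) of each gene in total, polysomal and CSP1-IP RNA; points are differences of group means and bars are SE, coloured by line. The gene of PSRP1 lies above 0 in every pool and line, and the other genes lie at or below 0 in total and polysomal RNA.

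In CSP1-IP RNA, 0 of 8 genes were called in CSP1-FH (8.65% of all probe sets, 3 genes at an unadjusted p below 0.05 by limma) and 3 of 8 in HF-RPL18 (28.5% of all probe sets). The gene of PSRP1 rose in HF-RPL18, where its cold and non-stress arrays overlapped. It gave 10.05, 10.88 and 9.07 in the cold, against 8.21, 9.21 and 8.05 without stress (difference 1.51, SE 0.47, limma adjusted p = 0.0168). In CSP1-FH it gave 10.20 and 9.67 in the cold, against 8.07 and 8.53 without stress (difference 1.64, SE 0.57, limma adjusted p = 0.0729), and these arrays did not overlap. L29 fell in HF-RPL18, with 10.68, 10.40 and 9.84 in the cold, against 11.00, 11.22 and 11.54 without stress (difference −0.95, SE 0.21, limma adjusted p = 0.00131). L3 fell in HF-RPL18, with 10.75, 10.55 and 9.52 in the cold, against 10.75, 10.95 and 11.35 without stress (difference −0.75, SE 0.23, limma adjusted p = 0.0151). The lowest L29 and L3 values both came from the third cold array, and without it L3 was not called (difference −0.37, adjusted p = 0.169). The count in HF-RPL18 was 6 without the first cold array and 1 without the third non-stress array, and in CSP1-FH it was 1 without the first non-stress array. None of these 3 calls held when each pool had a variance of its own, when arrays were weighted, or with the compared groups alone.

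The mean of S6 (AT1G64510) was higher in the cold in CSP1-FH, where its CSP1-IP arrays read 8.59 and 8.64 in the cold, against 8.67 and 6.93 without stress (difference 0.81, SE 0.30, limma adjusted p = 0.0922). In HF-RPL18 its difference was −0.37 (SE 0.25). The difference between the lines in this cold change was 1.19 (SE 0.39, limma adjusted p = 0.0551), where 8.57% of all probe sets were called. It was above 0 for 7 of 8 genes with a median of 0.76, 0 of 8 were called, and 4 had an unadjusted p below 0.05. Without the non-stress CSP1-FH array at 6.93 the S6 value was 0.32 (adjusted p = 0.555), without the other array of that group it was 2.05 (adjusted p = 7.7e-05), and without the first cold HF-RPL18 array it was 1.39 (adjusted p = 0.0236).

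The lines were compared within each pool and condition to see what the mutation or the 35S:AtCSP1-FH transgene changed. None of the 8 genes was called in any of the 14 comparisons by limma, and 3 of the 112 differences had an unadjusted p below 0.05, all of them in CSP1-IP RNA. For atcsp1-1 minus HF-RPL18, the called share of all probe sets was 0.00440% in cold total, 0.00879% in non-stress total, 0.00440% in cold polysomal and 0.00879% in non-stress polysomal RNA. For atcsp1-1 minus CSP1-FH it was 0.00440% in cold total, 0% in non-stress total and 0.00440% in both polysomal comparisons. For CSP1-FH minus HF-RPL18 it was 0.00440% in cold total, 0.00879% in non-stress total, 0.00440% in cold polysomal, 0.00879% in non-stress polysomal, 7.22% in cold CSP1-IP and 3.63% in non-stress CSP1-IP RNA.

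The widest gap between the mutant and HF-RPL18 in total RNA was that of the PSRP1 gene, with 9.94 and 11.03 in non-stress atcsp1-1, against 9.06, 10.96 and 9.70 in non-stress HF-RPL18. The difference was 0.58 (95% interval −0.49 to 1.65). For S6 in the same comparison the difference was 0.32 (95% interval −0.24 to 0.89). In CSP1-IP RNA of non-stress plants, S6 gave 8.67 and 6.93 in CSP1-FH, against 8.56, 8.87 and 8.55 in HF-RPL18 (difference −0.86, SE 0.28, limma adjusted p = 0.0754). S10 gave 9.45 and 8.30 in CSP1-FH, against 9.91, 9.89 and 9.84 in HF-RPL18 (difference −1.01, SE 0.37, limma adjusted p = 0.119). In both genes the second CSP1-FH array was the low one. Without the first CSP1-FH array 3 of 8 genes were called in this comparison, and without the first HF-RPL18 array 2 of 8 were called in the cold CSP1-IP comparison.

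Contrasts of contrasts tested whether an effect depended on temperature or line. In these 12 comparisons 0 of 8 genes were called by limma, and 8 of 96 values had an unadjusted p below 0.05. For the cold change of CSP1-IP minus total RNA, 0.101% of all probe sets were called in CSP1-FH and 4.48% in HF-RPL18, and L29 in HF-RPL18 had the lowest adjusted p of the 8 genes there (difference −0.77, SE 0.29, limma adjusted p = 0.117). Leaving out the first non-stress CSP1-IP array of CSP1-FH or the first cold CSP1-IP array of HF-RPL18 gave 1 called gene for that line. For the line difference of CSP1-IP minus total RNA, 0.0572% were called in the cold and 0.0264% without stress, and S6 differed by −1.12 between CSP1-FH and HF-RPL18 without stress (SE 0.39, limma adjusted p = 0.397), where 1 gene was called without the first non-stress CSP1-IP array of CSP1-FH. For the cold change of polysomal minus total RNA and the line differences of the cold change in total and polysomal RNA, 0% of all probe sets were called.

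The plastid-encoded partners of these proteins had 15 of 21 listed genes measured. Most of their means were lower in CSP1-IP than in total RNA, and 2 were higher in cold CSP1-FH, 1 in non-stress CSP1-FH, 2 in cold HF-RPL18 and 0 in non-stress HF-RPL18. The lower call was reached by 3 of 15 in cold CSP1-FH (14.0% of all probe sets), 8 of 15 in non-stress CSP1-FH (17.2%), 6 of 15 in cold HF-RPL18 (23.8%) and 11 of 15 in non-stress HF-RPL18 (17.0%), and none was called higher. Their medians were −0.89, −1.56, −0.86 and −2.33 in the same order. After cyclic loess 1, 5, 3 and 10 of the 15 were called lower, against 9.29%, 11.1%, 15.6% and 12.1% of all probe sets, and the medians were −0.49, −0.84, −0.28 and −1.78. In non-stress HF-RPL18, rpl22 had the lowest difference of −4.34 (SE 0.54), followed by rps2 with −3.55 (SE 0.62), rpl16 with −3.23 (SE 0.81) and rpl33 with −3.20 (SE 0.34). Plastid transcripts are not carried on cytosolic polysomes and lack the stable poly(A) tails on which 3′ labelling relies, as background to these values. In the cold, 6 of the 15 rose in CSP1-IP RNA of HF-RPL18, where 28.5% of all probe sets were called in either direction, led by rps19 (2.02), rpl36 (1.85), rpl20 (1.77) and rps4 (1.45), and all 15 means were higher. Of the 8 nuclear genes, 7 had lower means in the same comparison. In CSP1-IP RNA of CSP1-FH, where 8.65% of all probe sets were called, none of the 15 was called by limma (0 at an unadjusted p below 0.05), 13 of the 15 means were higher in the cold with a median of 0.50, and 5 of the 8 nuclear genes had higher means with a median of 0.06. The 2 lists were not tested against each other.

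**Figure D4:**
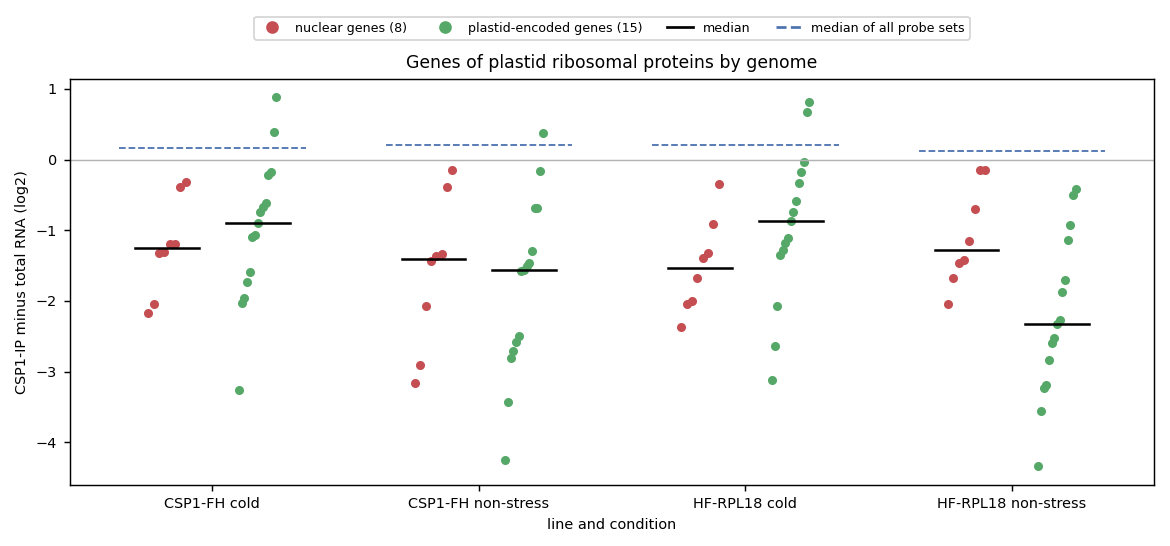
CSP1-IP minus total RNA (log2) for the 8 nuclear and the 15 measured plastid-encoded genes of plastid ribosomal proteins, by line and condition; each point is a gene, black bars are medians and dashed lines are medians of all probe sets. Both sets lie mostly below 0, and the plastid-encoded genes spread more widely, from −4.34 to −0.42 in non-stress HF-RPL18.

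Of 8 listed nuclear genes of plastid translation factors, 2 were measured. IF2 (FUG1, AT1G17220), which brings the initiator tRNA to the small subunit, was called lower in CSP1-IP than in total RNA in cold HF-RPL18 (−1.15, SE 0.30), non-stress HF-RPL18 (−1.28, SE 0.30) and non-stress CSP1-FH (−1.62, SE 0.37), where 23.8%, 17.0% and 17.2% of all probe sets were called lower. After cyclic loess the call of IF2 held in non-stress HF-RPL18 (−0.75) and was lost in cold HF-RPL18 (−0.32) and non-stress CSP1-FH (−0.83). IF3 (AT2G24060), which keeps the subunits apart before initiation, was called higher in cold CSP1-FH (0.97, SE 0.36), cold HF-RPL18 (1.61, SE 0.30) and non-stress HF-RPL18 (1.47, SE 0.30). Of the 22746 probe sets, 6267, 12672 and 7226 were called in either direction in the same order. Of these, 3182, 5403 and 3877 were lower, so higher calls were common. Against polysomal RNA, IF3 was called higher in all 4 comparisons, by 2.13 to 2.39. There 6033 to 10819 of all probe sets were called in either direction, and 3045 to 4730 were called lower. On the deposited scale IF3 was thus not lower in these comparisons, and its values after cyclic loess are not given here.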

How the data were processed

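Biotin-labelled RNA of 38 samples was hybridized to ATH1 arrays, and the authors deposited log2 values per probe set made with RMA, according to the submitters' processing notes. Neither the RMA version nor the set of arrays normalized at once is stated in the sources used here. Of 22810 probe sets, 64 controls were left out and 22746 were tested. The platform annotation names 1 gene for 13513 of them (59.4%), several for 503 and none for 8730. Array number limits the precision.

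The deposited values were fitted in R 4.3.3 with limma 3.58.1 (lmFit, eBayes), with 1 mean for each of 16 groups, a spread shared by all groups (22 residual plus 5.22 prior degrees of freedom) and Benjamini-Hochberg adjustment of 2-sided p-values within each comparison. The fit was tested on simulated data with the same spread in every pool and no replicate effect. Those data cannot show how the fit performs at the wider spread of CSP1-IP arrays. Alternatives were cyclic loess, array weights, a variance per RNA pool, a replicate block, a filter below the 25th percentile, fits without CSP1-IP arrays or with the compared groups alone, and each array left out. All measured genes are named, and from each context list up to 4 called genes with the widest differences. The genes, lists and tests were chosen with earlier results of these data known, and the set of probe sets of equal signal was defined after values were seen. A planned list of cytosolic ribosomal proteins was not used.

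The series design calls replicates biological. Same-numbered HF-RPL18 arrays deviated together between polysomal and total RNA (correlations over probe sets of 0.49 to 0.73) and between cold and non-stress arrays of total and polysomal RNA (0.31 to 0.50), so the numbers were taken to pair them. CSP1-IP arrays did not meet this rule.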

Additional observations from a re-analysis of the deposited data

How the results depend on the processing

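The direction of every called difference was kept under each alternative except cyclic loess. That setting turned 2 called differences of L17 (AT3G54210) above 0, in CSP1-IP minus polysomal RNA (0.11 in cold CSP1-FH, 0.50 in cold HF-RPL18). Differences of L17 without a call in the main fit became called higher in CSP1-IP minus total RNA (0.70 in non-stress CSP1-FH, 0.43 in cold HF-RPL18). The same held for CSP1-IP minus polysomal RNA in non-stress CSP1-FH (0.74). Of the 297 probe sets of equal signal, 26.6%, 23.2% and 26.9% were called higher after cyclic loess in the same order. Of 23 called differences of CSP1-IP from total RNA, 12 held after cyclic loess, 20 with array weights, 18 with a variance per pool, 20 with the compared groups alone, and 23 each with the filter on dim probe sets and the replicate block. The cause of these losses was not tested, except that the compared groups alone hold fewer arrays.

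Counts of called genes moved as follows. Cyclic loess gave 2 for CSP1-IP minus total RNA in cold CSP1-FH and 3 in non-stress CSP1-FH (2 lower, 1 higher). For CSP1-IP minus polysomal RNA it gave 3 in cold CSP1-FH, 4 in cold HF-RPL18 (3 lower, 1 higher) and 2 in non-stress HF-RPL18. It gave 1 for the cold change of CSP1-IP RNA in CSP1-FH. The compared groups alone gave 5 for CSP1-IP minus polysomal RNA in cold HF-RPL18 and 0 for the cold change of CSP1-IP and total RNA in HF-RPL18. Array weights and a variance per pool each gave 0 for the cold change of CSP1-IP RNA and 1 for that of polysomal RNA in HF-RPL18, where leaving out the CSP1-IP arrays also gave 1 (L17 each time). A variance per pool gave 1 for polysomal minus total RNA in cold HF-RPL18 (L19). The replicate block gave 1 for the cold change of polysomal RNA in HF-RPL18 and of CSP1-IP RNA in CSP1-FH (the PSRP1 gene both times), for CSP1-FH minus HF-RPL18 in non-stress CSP1-IP RNA (S10) and in the cold change of CSP1-IP RNA (S6), and in the comparisons whose numbers pair the arrays it changed no other call.

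Leaving out 1 array at a time gave 2 to 4 called genes for CSP1-IP minus total RNA in cold CSP1-FH, 3 to 5 for CSP1-IP minus polysomal RNA in cold and in non-stress CSP1-FH and 5 to 7 in cold HF-RPL18. It gave 1 to 6 for the cold change of CSP1-IP RNA in HF-RPL18, and 0 to 1 in CSP1-FH and for polysomal and total RNA of HF-RPL18. For CSP1-FH minus HF-RPL18 it gave 0 to 3 in non-stress and 0 to 2 in cold CSP1-IP RNA, 0 to 3 in the cold change of CSP1-IP RNA and 0 to 1 in non-stress CSP1-IP minus total RNA. The cold change of CSP1-IP minus total RNA gave 0 to 1 in each line.

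Counts over all probe sets moved by over 1.5 times under at least 1 alternative in 40 of 48 comparisons. For polysomal minus total RNA they were 254 in non-stress HF-RPL18 (27 to 1690 over the alternatives) and 645 in cold HF-RPL18 (159 to 3089), and for the cold change 2447 in HF-RPL18 total RNA (1687 to 5148), 6491 in HF-RPL18 CSP1-IP RNA (634 to 8047) and 1968 in CSP1-FH CSP1-IP RNA (71 to 2484). For CSP1-IP minus total RNA they were 12672 in cold HF-RPL18 (5851 to 13224) and 8222 in non-stress CSP1-FH (4006 to 8900). With 2 or 3 arrays a group and no array of RNA recovered without CSP1, small differences stay below detection.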
